A study of Mus musculus with 6 samples.

Results

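Chemokines, interleukins and their receptors were examined in PU.1-deficient LSK cells, the lineage-negative, Sca-1+, c-Kit+ fraction of bone marrow that holds HSCs and multipotent progenitors. The members were all genes with a symbol that starts with Ccl, Ccr, Cxcl, Cxcr or Il followed by a digit, apart from 5 named genes that were left out of the set: *Ccr2*, *Il7r*, *Il3ra*, *Il6ra* and *Il6st*. Of the 10528 genes tested, 47 had such a symbol and 4 of these were among the named exclusions, which left 43 members with 56 probes. By role they were 8 chemokines, 4 chemokine receptors, 9 interleukins, and 22 interleukin receptor chains, decoys or binding proteins. Where a gene had more than 1 probe, the brightest by its mean over all pools stands for it.

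Chemokines are small secreted proteins that guide migrating cells through receptors coupled to G proteins, and the axis of CXCL12 and CXCR4 holds HSCs and immature neutrophils in the marrow. Interleukins act through paired receptor chains, several of which are shared between cytokines. The IL-1 family, to which IL-18 belongs, is also held in check by decoy receptors and soluble binding proteins that capture the cytokine without passing on a signal. PU.1, encoded by *Spi1*, is an ETS family transcription factor of myeloid and lymphoid development that binds DNA around the core GGAA.

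Gene expression was measured on Illumina whole-genome mouse arrays in 3 wild-type (Spi1+/+ MxCre+) and 3 PU.1-deficient (Spi1fl/fl MxCre+) pools of LSK cells, with 15 to 20 mice in each pool. All mice, of both genotypes, were on a C57BL/6 background, aged 6 to 12 weeks, carried MxCre and received 2 injections of 5 µg polyIC per g of body weight, 3 days apart. The cells were taken 14 days after the first injection. MxCre is switched on by interferon and is not limited to LSK cells, so *Spi1* could also be deleted in other cells of the marrow.

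The *Spi1* probe, whose exon was not checked here, read normalized log2 intensities of 6.62, 5.80 and 6.00 in PU.1-deficient pools 1, 2 and 3 and 8.54, 8.51 and 8.69 in wild-type pools 1, 2 and 3. Every PU.1-deficient pool was below every wild-type pool, with a log2 fold change (log2FC, PU.1-deficient minus wild type) of -2.44 (standard error, SE, 0.24, adjusted p = 0.00112 from *limma*). PU.1-deficient pool 2 and wild-type pool 1 stood apart from the other pools of their genotype. The median absolute log2 difference was 0.16 between wild-type pools 2 and 3 but 0.34 between either and pool 1, and it was 0.22 between PU.1-deficient pools 1 and 3 but 0.40 and 0.34 between these and pool 2. Over the 9 pairs of pools from different genotypes it ran from 0.32 to 0.49. Some pools thus differed as much within a genotype as across genotypes. *Kit*, which marks LSK cells, was detected in every pool. It was lower in every PU.1-deficient pool than in every wild-type pool but did not pass (log2FC -0.44, adjusted p = 0.221). Of 7 tested LSK and stem cell markers, 0 rose and 3 fell: *Meis1* (log2FC -2.05), *Cd34* (-1.66) and *Slamf1* (at least 1.35-fold). *Flt3*, which the authors describe as an obligate target of PU.1, gave -1.21 and did not pass (adjusted p = 0.0621). *Ly6a*, which encodes Sca-1, had no tested probe. The call of *Slamf1* ended on omission of any 1 pool except wild-type pool 1 (adjusted p from 0.0505 to 0.117), with an offset of 50 (0.0668), with uncorrected background (0.0628), with equal medians (0.0674) and when dim probes were kept (0.0571). *Xist*, the X-inactivation transcript, had a log2FC of 5.62 between the same pools, so that genotype and this sex-linked difference cannot be told apart.

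Of the 43 members, 4 rose, 4 fell and 35 did not pass the test, in a comparison of 3 PU.1-deficient with 3 wild-type pools (*limma*, adjusted p under 0.05 over all 22119 probes tested). The decoy receptor *Il1r2*, the IL-17 receptor chain *Il17rb* and the chemokine receptors *Cxcr1* and *Cxcr4* rose. The cytokines *Il18* and *Il4* and the receptor chains *Il31ra* and *Il10rb* fell. The passing members were 18.6% of the set, where 12.2% of all genes tested passed, 6.61% as higher and 5.59% as lower in PU.1-deficient LSK cells. The median log2 fold change of the members was -0.06, beside -0.04 over all genes tested, with 19 members above 0 and 24 below. It was -0.06 also with the genes that have only a bound, described below, set to that bound. The pools of the genotypes did not overlap for 15 members (34.9%), which is close to the 34.5% of all genes tested, so that separation of the pools is not particular to the set. Omission of wild-type pool 3 left 2 members higher and 1 lower, omission of wild-type pool 2 left 4 and 2, and omission of PU.1-deficient pool 1 left 3 and 2. With PU.1-deficient pool 2 and wild-type pool 1 both omitted, which was tried after seeing the data, 6 were higher and 9 lower. Deviations from the genotype mean correlated by -0.68 between these pools, but by 0.61 and 0.52 between PU.1-deficient pool 2 and wild-type pools 2 and 3. This omission thus leaves variation shared by pools of both genotypes unbalanced, and the part of that variation in the counts was not tested. Scaling the arrays to equal medians instead of quantile normalization shifted all tested probes, whose median log2 fold change went from -0.05 to -0.21, and left 3 members higher and 5 lower.

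**Figure D1:**
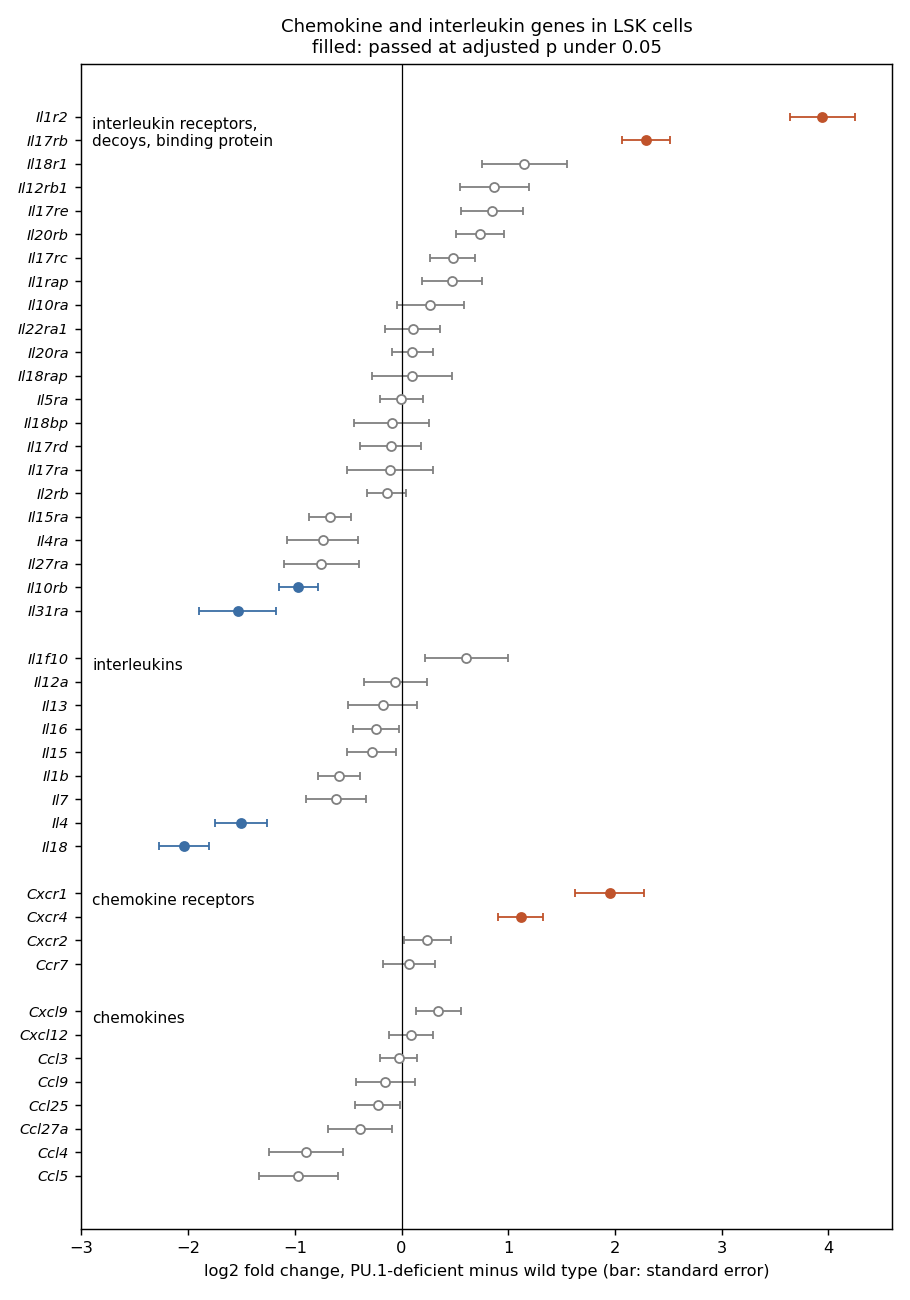
Log2 fold change of each of the 43 members (PU.1-deficient minus wild type, x axis) grouped by role, with the standard error of 3 pools per genotype as bars. The 4 members that rose (orange) and the 4 that fell (blue) are filled, and *Il1r2* (3.94) and *Il18* (-2.04) lie at the ends of the x axis, while the points of the 9 members with no detected pool in 1 genotype are differences from background readings.

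Many of these genes were near the background of the arrays. A gene was taken as detected in a pool at a detection p-value under 0.05, which compares its probe with the negative control beads. By this measure 18 members (41.9%) were detected in all 6 pools, beside 76.5% of all genes tested. The CC chemokines were detected throughout, 6 of 6 in every pool, whereas neither CXC chemokine was. *Cxcr1* and *Il20rb* were detected in every PU.1-deficient pool but in 0 wild-type pools, and *Il4*, *Il31ra* and *Il7* in every wild-type pool but in 0 PU.1-deficient pools. Where a genotype had no detected pool, which held for 9 members, only a bound is given for the fold, or no fold for the 2 members (*Ccr7* and *Il2rb*) that gave no bound above 1. The bound sets the mean of the brighter genotype against the lowest signal that counted as detected.

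**Figure D2:**
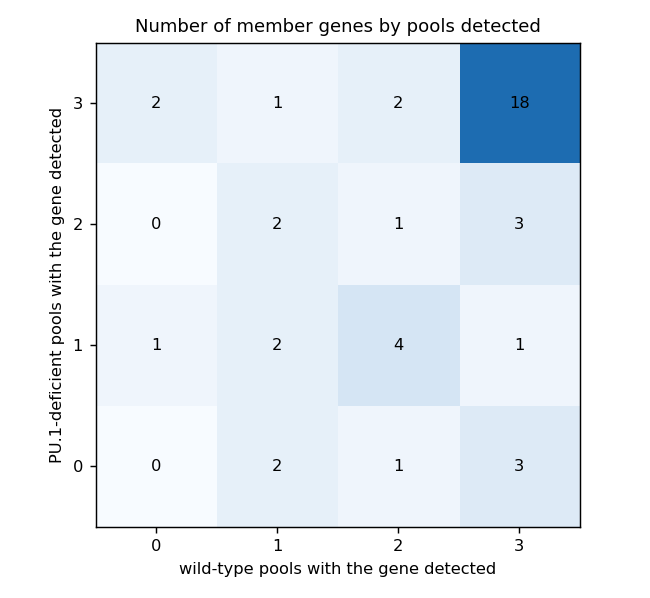
Number of members by the number of wild-type pools (x axis, 0 to 3) and PU.1-deficient pools (y axis, 0 to 3) in which the gene was detected. The upper right cell holds the 18 members detected in all pools, the upper left cell the 2 detected in all PU.1-deficient and 0 wild-type pools, and the lower right cell the 3 detected in all wild-type and 0 PU.1-deficient pools.

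*Il1r2* encodes the type II IL-1 receptor, a decoy that binds IL-1 without signalling. Its log2 intensities were 9.09, 8.76 and 8.76 in PU.1-deficient pools 1, 2 and 3 and 4.39, 5.57 and 4.82 in wild-type pools 1, 2 and 3. All PU.1-deficient pools were high and close together, and the gene was detected only in pool 2 of the wild-type pools. The mean was 8.87 ± 0.19 against 4.93 ± 0.59 (SD, n = 3 each), a log2FC of 3.94 (SE 0.30, adjusted p = 0.000411 from *limma*). *Il1r2* passed under each of the 17 alternative settings, although its log2FC was 2.17 with no background correction.

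*Il17rb* encodes the receptor chain for IL-17B and for IL-25, which pairs with the product of *Il17ra*. Its log2 intensities were 8.75, 8.78 and 8.53 in PU.1-deficient pools 1, 2 and 3 and 6.43, 6.00 and 6.76 in wild-type pools 1, 2 and 3. The gene was detected in all 6 pools, and the lowest PU.1-deficient pool lay well above the highest wild-type pool. The log2FC of *Il17rb* was 2.29 (SE 0.23, adjusted p = 0.00121), and it was 1.47 with no background correction, still past the threshold.

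*Cxcr1*, a receptor for chemokines that attract neutrophils, read 6.29, 7.31 and 6.10 in PU.1-deficient pools 1, 2 and 3 and 4.68, 4.75 and 4.42 in wild-type pools 1, 2 and 3. With the main background correction its rise was at least 3.01-fold (adjusted p = 0.00984), with PU.1-deficient pool 2 the highest. The log2FC of *Cxcr1* was 1.15 with an offset of 50 and 0.73 with no background correction, both smaller than that bound. *Cxcr2*, the neighbouring gene on the chromosome and a receptor for a similar group of chemokines, was detected in 1 of 3 pools of each genotype and did not pass (log2FC 0.24, SE 0.22, adjusted p = 0.621). The difference between these neighbours was not itself tested. The call of *Cxcr1* ended without wild-type pool 3 (adjusted p = 0.0563).

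*Cxcr4*, the receptor for CXCL12, was bright in every pool. Its log2 intensities were 11.83, 11.76 and 11.32 in PU.1-deficient pools 1, 2 and 3 and 10.31, 10.73 and 10.52 in wild-type pools 1, 2 and 3. The pools did not overlap, and the mean rose from 10.52 ± 0.21 to 11.64 ± 0.28 (SD, n = 3 each), a log2FC of 1.12 (SE 0.21, adjusted p = 0.0172). *Cxcl12*, its ligand, which stromal cells of the marrow make, was detected in 1 of 3 pools of each genotype (log2FC 0.09, adjusted p = 0.873). The call of *Cxcr4* ended when arrays were scaled to equal medians (log2FC 0.97, adjusted p = 0.0806) and on omission of PU.1-deficient pool 1 (0.0723) or wild-type pool 3 (0.0794). *Ccr7*, the receptor that guides lymphocytes and dendritic cells to lymph nodes, was detected in 1 wild-type pool only, so that no fold is given (adjusted p = 0.921).

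Neutrophil markers were higher in the same PU.1-deficient pools. Of 10 tested neutrophil markers, 7 rose and 0 fell, among them *Camp* (log2FC 4.53), while *Ltf*, *Mmp9* and *Cxcr2* itself did not pass. The call of *Retnlg*, 1 of the 7, ended on omission of any 1 pool except PU.1-deficient pool 2 (adjusted p from 0.0655 to 0.182), with equal medians (0.243) and when dim probes were kept (0.114). The summed linear level of the list was 73802 to 88576 in PU.1-deficient pools and 8085 to 10778 in wild-type pools. Lineage depletion before the sort used antibodies to CD11b and Gr-1, which bind mature neutrophils and monocytes. The authors propose that the neutrophil transcripts most likely come from an abnormal population with intermediate c-Kit among PU.1-deficient LSK cells. The part of neutrophils or of that population in the rises of *Il1r2*, *Cxcr1* and *Cxcr4*, which neutrophils also express, was not tested. In pooled RNA more cells of a type and more RNA per cell cannot be told apart.

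*Il18* encodes a cytokine of the IL-1 family that caspase-1 cleaves to its active form and that induces interferon gamma. Its log2 intensities were 4.95, 5.10 and 5.42 in PU.1-deficient pools 1, 2 and 3 and 6.80, 7.32 and 7.46 in wild-type pools 1, 2 and 3. It was detected in every wild-type pool but only in pool 3 of the PU.1-deficient pools, and the mean was 5.15 ± 0.24 in PU.1-deficient against 7.19 ± 0.35 in wild-type LSK cells (SD, n = 3 each). This was a log2FC of -2.04 (SE 0.23, adjusted p = 0.00215). *Il18* passed under each of the 17 alternative settings, with a log2FC of -0.87 when the background was not corrected.

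*Il4*, the cytokine of type 2 immunity, read 4.56, 4.53 and 4.71 in PU.1-deficient pools 1, 2 and 3 and 5.60, 6.43 and 6.30 in wild-type pools 1, 2 and 3. All PU.1-deficient pools were at background and wild-type pool 1 was the lowest of its genotype. With the main background correction the fall of *Il4* was at least 2.00-fold (adjusted p = 0.00944), and its call ended without wild-type pool 3 (0.0552). Its log2FC was -0.83 with an offset of 50 and -0.51 with no background correction, both smaller falls than that bound. *Il13*, its neighbour on the chromosome and a cytokine of the same type of response, was detected in 1 PU.1-deficient and 2 wild-type pools and did not pass (log2FC -0.18, adjusted p = 0.831). *Il4ra*, the receptor chain that both cytokines use, had a log2FC of -0.74 (SE 0.33, adjusted p = 0.261). Basophils and mast cells are a source of IL-4, and of 7 tested markers of these cells *Mcpt8* (log2FC 3.73) and *Cpa3* (1.37) rose and *Gata2* (-1.56) fell. The call of *Cpa3* ended on omission of PU.1-deficient pool 1 (adjusted p = 0.0693), wild-type pool 2 (0.0577) or wild-type pool 3 (0.0657) and as the mean of its probes (0.0686), and that of *Gata2* without wild-type pool 3 (0.0525). The summed linear level of the list was 8025 to 9972 in PU.1-deficient and 5471 to 6495 in wild-type pools. The sum rested mostly on *Gata2* in wild-type pools (mean log2 intensity 11.73) and on *Cpa3* and *Mcpt8* in PU.1-deficient pools (11.58 and 11.47), so it does not show a shared rise of these markers. *Ms4a2*, the beta chain of the IgE receptor, was detected in 1 wild-type pool only. The part of basophils and mast cells in the values of *Il4* was not tested.

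*Il31ra* encodes a receptor chain that pairs with the product of *Osmr* to bind IL-31. Its log2 intensities were 4.46, 4.38 and 4.57 in PU.1-deficient pools 1, 2 and 3 and 5.12, 6.34 and 6.56 in wild-type pools 1, 2 and 3. The PU.1-deficient pools were at background and wild-type pool 1 was low for its genotype. With the main background correction the fall was at least 1.86-fold (adjusted p = 0.0419), whereas an offset of 50 gave a smaller log2FC of -0.84. This call of *Il31ra* was the least stable of the 8. It ended on omission of PU.1-deficient pool 1 (adjusted p = 0.127), 2 (0.0948) or 3 (0.121) or of wild-type pool 2 (0.161) or 3 (0.154), with an offset of 50 (0.072), with no background correction (0.061) and with no filter on dim probes (0.108), whereas without wild-type pool 1 the adjusted p was 0.00183.

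*Il10rb*, the chain shared by the receptors for IL-10 and IL-22, read 7.01, 7.31 and 7.44 in PU.1-deficient pools 1, 2 and 3 and 8.28, 8.12 and 8.27 in wild-type pools 1, 2 and 3. The wild-type pools lay within a narrow range and above all PU.1-deficient pools. The log2FC of *Il10rb* was -0.97 (SE 0.18, adjusted p = 0.0165), and its other probe gave -0.77 (adjusted p = 0.0801). The call ended without PU.1-deficient pool 1 (0.0649), wild-type pool 2 (0.0628) or wild-type pool 3 (0.0836).

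Monocyte markers were lower in PU.1-deficient pools, with 3 of 4 tested markers past the threshold and a summed linear level of 248 to 313 against 504 to 1389. The sum rested mostly on *F13a1* (mean log2 intensities 7.62 in PU.1-deficient and 8.99 in wild-type pools). *F13a1* was the marker that did not pass (log2FC -1.37, adjusted p = 0.0923 from *limma*). *Adgre1* and *Ms4a6c*, which mark macrophages and monocytes, were not detected in any PU.1-deficient pool. The call of *Adgre1* ended on omission of PU.1-deficient pool 1 (adjusted p = 0.0521), wild-type pool 2 (0.0538) or wild-type pool 3 (0.0762) and with uncorrected background (0.0561), and that of *Csf1r*, the receptor of M-CSF, on omission of wild-type pool 3 (0.0523). The authors name *Csf1r* as a known target of PU.1. For its fall, fewer cells and less RNA per cell cannot be told apart. The part of monocytes and macrophages in the falls of *Il18*, *Il31ra* and *Il10rb* was not tested.

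**Figure D3:**
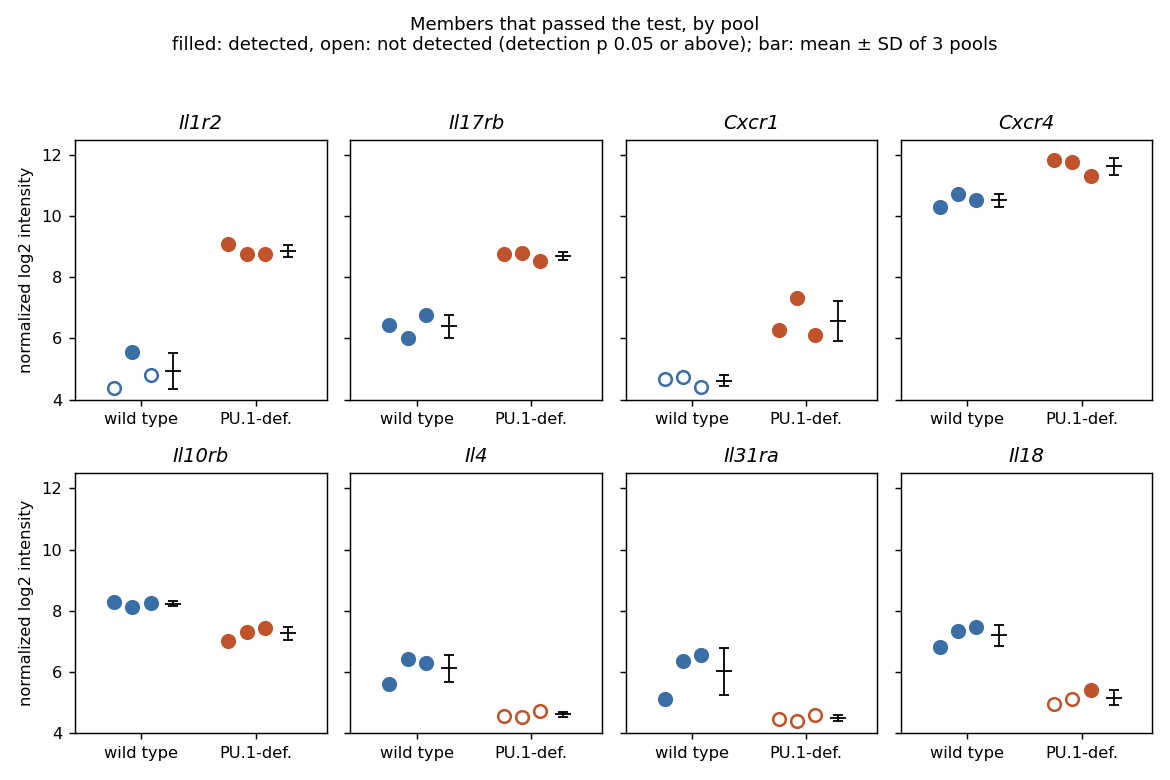
Normalized log2 intensity (y axis) of the 8 members that passed the test, in each of 3 wild-type (blue) and 3 PU.1-deficient (orange) pools, with the mean ± SD of each genotype as a bar. Open points are pools in which the gene was not detected, and in none of the 8 genes do the genotypes overlap.

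Since PU.1 binds around GGAA, the 250 bases before the annotated gene start are shown for 4 of the 8 genes, those with a window at the start of the gene that rose (*Il17rb*, *Cxcr4*) or fell (*Il18*, *Il4*). Sequences are from RefSeq (GRCm38.p6), written 5′ to 3′ on the strand of the gene, with GGAA and its reverse complement TTCC in capitals. The windows are chr14:30008897-30009146 (minus strand) for *Il17rb*, chr1:128592300-128592549 (minus) for *Cxcr4*, chr9:50554450-50554699 (plus) for *Il18* and chr11:53618666-53618915 (minus) for *Il4*.
Il17rb: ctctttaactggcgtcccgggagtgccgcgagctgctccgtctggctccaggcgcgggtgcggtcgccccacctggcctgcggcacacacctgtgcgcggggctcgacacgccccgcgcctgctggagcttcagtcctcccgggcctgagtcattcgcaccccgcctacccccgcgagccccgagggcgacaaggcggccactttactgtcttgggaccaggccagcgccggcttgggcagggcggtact
Cxcr4: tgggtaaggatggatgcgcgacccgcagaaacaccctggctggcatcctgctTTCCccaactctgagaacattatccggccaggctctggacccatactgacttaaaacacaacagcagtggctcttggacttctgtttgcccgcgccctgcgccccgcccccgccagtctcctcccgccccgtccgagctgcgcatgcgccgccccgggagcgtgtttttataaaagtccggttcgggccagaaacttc
Il18: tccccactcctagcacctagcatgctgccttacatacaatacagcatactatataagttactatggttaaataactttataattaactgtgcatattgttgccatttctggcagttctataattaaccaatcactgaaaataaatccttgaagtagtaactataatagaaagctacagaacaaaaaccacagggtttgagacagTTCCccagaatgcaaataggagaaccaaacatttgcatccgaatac
Il4: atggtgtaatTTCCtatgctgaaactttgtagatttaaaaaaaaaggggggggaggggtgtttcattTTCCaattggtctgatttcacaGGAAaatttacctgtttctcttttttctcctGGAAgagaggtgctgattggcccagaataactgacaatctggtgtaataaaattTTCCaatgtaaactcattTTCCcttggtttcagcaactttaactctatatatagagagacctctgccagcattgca
The *Il17rb* window held 0 copies of the core, those of *Cxcr4* and *Il18* held 1 each and that of *Il4* held 6. The core occurs in 93.4% of all 32851 promoter windows of this length, searched on both strands, so its presence is common. The longer GAGGAA, or its reverse complement TTCCTC, was in 23.3% of all windows and in 0 of these 4. A match is a run of letters and not a measured binding site, and no binding was measured in these samples.

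Members of the IL-18 system other than the cytokine did not pass the test at the probe chosen. They are given here to complete the pathway, as were the members named below that did not pass, some of which were chosen after their values were seen. *Il18r1*, the chain that binds IL-18, read 7.46, 7.09 and 7.79 in PU.1-deficient pools 1, 2 and 3 and 5.44, 6.42 and 7.02 in wild-type pools 1, 2 and 3, so that the genotypes were separate but wild-type pool 3 lay just below PU.1-deficient pool 2. Its log2FC was 1.15 (SE 0.40, adjusted p = 0.143). *Il18rap*, the signalling chain of the same receptor and the next gene on the chromosome, gave 0.10 (adjusted p = 0.931) at its brighter probe and 0.95 at the other, which passed (adjusted p = 0.0397), so that its probes disagree. *Il18bp*, the soluble inhibitor of IL-18, had a log2FC of -0.09 (adjusted p = 0.93) and was detected in 3 wild-type and 2 PU.1-deficient pools.

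The genes *Il1r2*, *Il18r1* and *Il18rap* lie in one cluster of IL-1 receptor genes, with 3 genes between *Il1r2* and *Il18r1* in GRCm38.p6. Within the 8 members of the IL-1 family and its receptors, 1 rose and 1 fell (25%, beside 12.2% of all genes tested). *Il1b*, the inflammatory cytokine that the decoy captures, was detected in 2 wild-type pools and in 0 PU.1-deficient pools, for a bound of at least 1.05-fold lower (adjusted p = 0.139). *Il1rap*, the shared signalling chain, gave 0.47 (adjusted p = 0.414), and *Il1f10*, which encodes IL-38, gave 0.61 (SE 0.39, adjusted p = 0.452) with its highest value, 6.53, in PU.1-deficient pool 2.

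Of the 5 IL-17 receptor chains, *Il17rb* alone passed, although *Il17re* also did when arrays were weighted (adjusted p = 0.0129) and when pools of equal number were treated as pairs. *Il17re*, the chain for IL-17C, read 8.70, 9.02 and 9.10 in PU.1-deficient pools 1, 2 and 3 and 7.46, 8.41 and 8.41 in wild-type pools 1, 2 and 3. Its pools were separate and wild-type pool 1 was the lowest, with a log2FC of 0.84 (SE 0.29, adjusted p = 0.14). *Il17rc*, its neighbour on the chromosome and a chain of the receptor for IL-17A and IL-17F, was also separate between the genotypes at its brightest probe and gave 0.48 (adjusted p = 0.249). A further probe of *Il17rc* overlapped between the genotypes. *Il17ra*, the shared chain, spanned 6.06 to 7.67 in PU.1-deficient pools and 6.92 to 7.42 in wild-type pools, with a log2FC of -0.10 (adjusted p = 0.929) that turned to 0.37 on omission of PU.1-deficient pool 2 and to 0.05 on omission of wild-type pool 1. *Il17rd*, which was close to background, gave -0.10 (adjusted p = 0.896), and 0.03 or 0.08 when PU.1-deficient pool 1 or wild-type pool 3 was left out. Whether *Il17rb* differed more than the other chains was not tested.

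**Figure D4:**
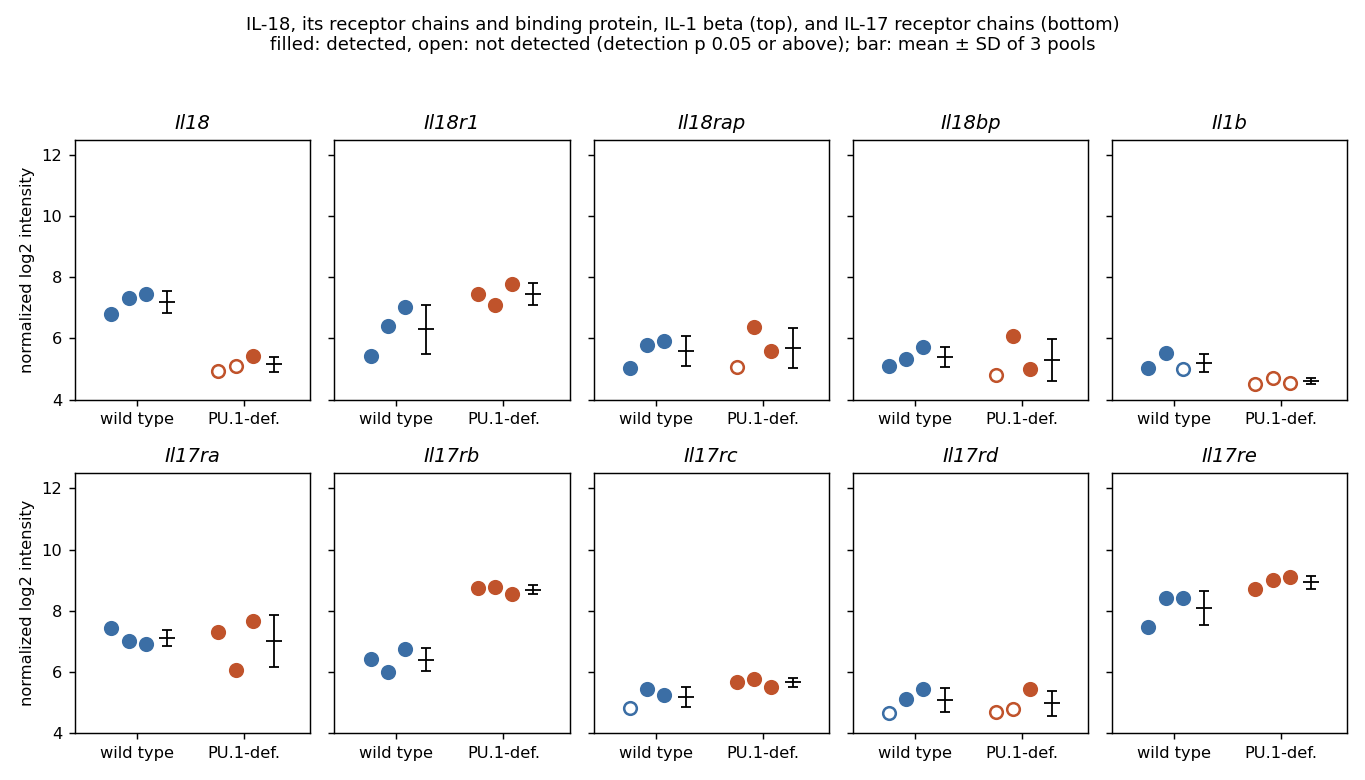
Normalized log2 intensity (y axis) in each wild-type (blue) and PU.1-deficient (orange) pool, with the mean ± SD of 3 pools as a bar and open points where the gene was not detected. The upper row shows *Il18*, which fell, beside its receptor chains, its binding protein and *Il1b*, and the lower row shows *Il17rb*, which rose by 2.29, beside the other 4 IL-17 receptor chains, for which the log2FC values were -0.10 to 0.84.

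None of the 8 chemokines passed the test in *limma*, and 2 of them, *Ccl4* and *Ccl5*, both lower, had an unadjusted p under 0.05. So did 16 of the 43 members. The share of all genes under this unadjusted threshold was not counted, so no trend of the chemokines is read from it. *Ccl4*, a chemokine that attracts T cells and monocytes, read 8.24, 8.78 and 8.49 in PU.1-deficient pools 1, 2 and 3 and 8.61, 9.77 and 9.81 in wild-type pools 1, 2 and 3. At this probe the genotypes overlapped through the low wild-type pool 1, and the log2FC was -0.89 (SE 0.35, adjusted p = 0.188), which became -1.29 (adjusted p = 0.0155) without that pool. At the other, dimmer probe of *Ccl4* the genotypes were separate, with a log2FC of -0.59 that did not pass (adjusted p = 0.119). *Ccl5*, which also attracts T cells and monocytes, was lowest in PU.1-deficient pool 3 at 5.60 and highest in wild-type pool 2 at 7.44. Its log2FC was -0.97 (SE 0.37, adjusted p = 0.185), and it passed when arrays were scaled to equal medians (adjusted p = 0.0224) or PU.1-deficient pool 2 was omitted (-1.37, adjusted p = 0.0293).

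The other CC chemokines gave log2FC values nearer 0 and lie partly in the same cluster. *Ccl5* and *Ccl9* are neighbouring genes in GRCm38.p6, as are *Ccl3* and *Ccl4*, and *Ccl6* lies between *Ccl9* and *Ccl3*. *Ccl9*, a myeloid chemokine, spanned 10.66 to 11.25 in PU.1-deficient and 10.65 to 11.56 in wild-type pools, with a log2FC of -0.15 (adjusted p = 0.833). *Ccl3*, a chemokine made by activated macrophages, gave -0.03 (SE 0.17, adjusted p = 0.958). *Ccl27a* gave -0.39 (adjusted p = 0.549) and *Ccl25*, which attracts progenitors to the thymus, -0.22 (adjusted p = 0.634). Of the CXC chemokines, *Cxcl9*, which interferon gamma induces, was detected in 1 PU.1-deficient pool only, for a bound of at least 1.17-fold higher (adjusted p = 0.428).

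Among the 9 interleukins, 2 fell (22.2%, beside 5.59% of all genes tested) and 8 had a lower mean in PU.1-deficient LSK cells. Their median log2FC was -0.28, or -0.24 with the 3 genes that have only a bound set to it, beside -0.04 over all genes tested. The share of all genes with a lower mean was not counted, and 6 of the 9 were undetected in at least 1 pool. No general fall of interleukins is read from these counts. *Il16*, *Il15* and *Il12a* were detected in every pool and did not pass. *Il15*, which sustains natural killer and memory T cells, gave -0.28 at its brightest probe (SE 0.23, adjusted p = 0.569) and -0.28 to 0.33 over its 3 probes. *Il16*, a chemoattractant for CD4+ cells, gave -0.24 (adjusted p = 0.617) and *Il12a*, the p35 subunit of IL-12, -0.06 (SE 0.30, adjusted p = 0.95). *Il7*, the cytokine of lymphoid progenitors that stromal cells make, read 4.96, 5.95 and 5.14 in wild-type pools 1, 2 and 3 and was not detected in PU.1-deficient pools. The bound on the difference was at least 1.18-fold lower, with an adjusted p of 0.271.

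Of the receptor chains of the IL-2 and IL-4 type, none passed (*limma*). *Il15ra*, the chain that presents IL-15, came closest, with 5.81, 5.31 and 5.79 in PU.1-deficient pools 1, 2 and 3 and 6.29, 6.36 and 6.28 in wild-type pools 1, 2 and 3. The pools were separate at this probe, with a log2FC of -0.67 (SE 0.19, adjusted p = 0.0842), but they overlapped at the other probe of *Il15ra* (-0.44, adjusted p = 0.288). *Il2rb*, the shared chain for IL-2 and IL-15, was detected in 1 wild-type pool only, so that no fold is given (adjusted p = 0.752), and *Il5ra*, the receptor chain of eosinophils and B-1 cells, gave 0.00 to 2 decimals (SE 0.20, adjusted p = 0.999).

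Among receptor chains of the IL-10 type, *Il10rb* fell and the other 4 did not pass. *Il20rb*, a chain for IL-19, IL-20 and IL-24, read 5.80, 5.49 and 5.02 in PU.1-deficient pools 1, 2 and 3 and was not detected in wild-type pools, for a bound of at least 1.37-fold higher and an adjusted p of 0.102. *Il10ra*, the chain that binds IL-10, gave 0.27 (SE 0.31, adjusted p = 0.709), *Il20ra* gave 0.10 (adjusted p = 0.841) and *Il22ra1* gave 0.10 (adjusted p = 0.88). The last of these, *Il22ra1*, is known from epithelial cells and was detected in 3 of the 6 pools.

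The receptors of the IL-12 and IL-6 type were *Il12rb1*, *Il27ra* and *Il31ra*. *Il27ra*, the chain that binds IL-27, read 7.75, 9.06 and 8.48 in PU.1-deficient pools 1, 2 and 3 and 8.75, 9.50 and 9.29 in wild-type pools 1, 2 and 3. At this probe the genotypes overlapped, and the log2FC of *Il27ra* was -0.75 (SE 0.36, adjusted p = 0.286), or -0.79 (adjusted p = 0.0448) as the mean of both probes. Its other probe separated the genotypes, with a log2FC of -0.83 (adjusted p = 0.108 from *limma*). *Il12rb1*, the chain shared by the receptors for IL-12 and IL-23, had a log2FC of 0.87 (adjusted p = 0.17), with its lowest PU.1-deficient value, 5.25, in pool 2, and it passed without that pool (1.24, adjusted p = 0.0151). The other probe of *Il12rb1* gave 0.17 (adjusted p = 0.873 from *limma*), with overlapping genotypes.

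Genes of the same pathways outside the symbol rule were counted from 4 lists. Over all genes tested, 12.2% passed, 6.61% as higher and 5.59% as lower. Whether a list differed from this share was not tested, so the counts are not read as results about a pathway. Of 9 tested cytokine subunits and shared chains, 1 rose and 2 fell. *Ebi3*, the subunit that pairs with p28 in IL-27 and with the product of *Il12a* in IL-35, read 4.88, 6.33 and 6.18 in PU.1-deficient pools 1, 2 and 3 and 9.16, 9.76 and 9.63 in wild-type pools 1, 2 and 3. It was low in all PU.1-deficient pools, with a log2FC of -3.72 (SE 0.39, adjusted p = 0.00152). *Csf2ra*, the chain that binds GM-CSF, fell by 1.38 on the log2 scale (adjusted p = 0.0144), a call that ended without PU.1-deficient pool 3 (0.0672), wild-type pool 2 (0.057) or wild-type pool 3 (0.0651). *Tslp*, an epithelial cytokine whose receptor includes the IL-7 receptor chain, rose by 1.56 on the log2 scale (SE 0.21, adjusted p = 0.00379). *Osmr*, the partner of *Il31ra*, gave a log2FC of 0.61 (adjusted p = 0.268).

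Of 16 tested genes of IL-1 family processing and signalling, 2 rose, 1 fell and 13 did not pass, where 12.2% of all genes tested passed. *Irak3*, an inhibitor of signalling from IL-1 and Toll-like receptors, averaged 10.48 ± 0.19 in PU.1-deficient and 9.03 ± 0.03 in wild-type pools (SD, n = 3 each). All PU.1-deficient pools were above all wild-type pools, with a log2FC of 1.45 (SE 0.17, adjusted p = 0.00257). *Irak2*, a kinase of the same pathway, gave 0.83 (adjusted p = 0.0461), and its call ended when arrays were scaled to equal medians (0.341), with no filter on dim probes (0.0541) and without any 1 of the 6 pools (0.0844 to 0.136). *Nlrc4*, a sensor that activates caspase-1, was undetected in every PU.1-deficient pool, for a fall of at least 1.26-fold (adjusted p = 0.0269), a call that ended without any 1 of 5 pools, all but PU.1-deficient pool 2 (0.056 to 0.126), with an offset of 50 (0.0625), with no background correction (0.0881) and with arrays scaled to equal medians (0.0648). *Casp1*, the protease that activates IL-18 and IL-1 beta, had a log2FC of 0.32 (SE 0.18, adjusted p = 0.369).

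Of 18 tested genes of signalling below chemokine receptors, 2 rose and 4 fell, where 12.2% of all genes tested passed. The G protein subunit *Gnai3* (log2FC 1.05) and the GTPase *Rac2* (0.82), which acts in neutrophil migration, rose. Both calls ended when arrays were scaled to equal medians (adjusted p = 0.17 and 0.32) or on omission of PU.1-deficient pool 1 (0.0557 and 0.136), wild-type pool 2 (0.0618 and 0.125) or wild-type pool 3 (0.0589 and 0.154), and that of *Rac2* also without PU.1-deficient pool 3 (0.135) or wild-type pool 1 (0.0611). The G protein subunit *Gng2* (-1.88), the kinase subunit *Pik3cg* (-0.95) and the regulators of G protein signalling *Rgs18* (-1.02) and *Rgs19* (-1.43) fell. The calls of *Pik3cg*, *Rgs18* and *Rgs19* ended without wild-type pool 2 (adjusted p = 0.15, 0.126 and 0.055) or wild-type pool 3 (0.155, 0.129 and 0.0575), those of *Pik3cg* and *Rgs18* also without PU.1-deficient pool 1 (0.132 and 0.0998), and *Pik3cg* without PU.1-deficient pool 3 (0.108), *Rgs18* without PU.1-deficient pool 2 (0.0568) and *Pik3cg* with no filter on dim probes (0.0521). Of 7 tested genes of other chemokines and chemokine receptors, *Pf4*, the platelet chemokine CXCL4, fell by 3.43 on the log2 scale (SE 0.25, adjusted p = 0.000345) and the other 6 did not pass. *Pf4* also belongs to the megakaryocyte markers, of which 5 of 5 fell, although the calls of *Itga2b* and *Gp1bb* ended on omission of any 1 of 4 pools, all but PU.1-deficient pool 2 and wild-type pool 1 (adjusted p from 0.103 to 0.163 and from 0.0818 to 0.154) and when dim probes were kept (0.103 and 0.097). The list had a summed linear level of 795 to 1354 in PU.1-deficient and 5874 to 6294 in wild-type pools. In wild-type pools the sum rested mostly on *Pf4* itself (mean log2 intensities 12.01 in wild-type and 8.58 in PU.1-deficient pools). The sum is thus not separate from the fall of *Pf4*, and the part of megakaryocytes in that fall was not tested.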

How the data were processed

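LSK cells from 3 pools of wild-type and 3 pools of PU.1-deficient mice were hybridized to Illumina MouseWG-6 version 2 arrays, 1 array per pool. The deposited intensities are raw probe brightness on a linear scale, with a detection p-value beside each, and the values show that the headings of each such column pair are exchanged. The authors' deposited log2 values (19750 probes) were made with neqc in *limma*. The intensities were normalized again with neqc in *limma* 3.58.1 (R 4.3.3), using an offset of 16, quantile normalization and a background estimated through the detection p-values, and differed from the deposited log2 values by at most 0.03. Arrays had median intensities between 89.5 and 116.5 and detected 15639 to 18174 of 45281 probes at a detection p under 0.05. Precision is limited by how few arrays there are.

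All 22119 probes detected in at least 1 array were tested with lmFit and eBayes (two-sided, 4 residual degrees of freedom), with Benjamini-Hochberg adjustment over all of them. Of these, 16494 carried 1 gene name, for 10528 genes, from the platform annotation. Probes with several names were not used for naming. An at-least fold compares the mean of the detected genotype with, per array of the other, the higher of the lowest detected signal and the probe's own. Summed levels are sums of linear normalized values. Promoter windows are the 250 bases before the start in the RefSeq table, which held a window for 32 of 43 members, 20 of them at the gene start. Gene order is from the RefSeq annotation of GRCm38.p6. The fit was tested on simulated data.

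The members and gene lists were chosen with earlier results of these data known. Named were all members past the threshold, the 4 brightest others of each role, members detected in all pools of one genotype only, and genes of the 4 pathway lists past the threshold (not all marker genes), and further members were added after their values were seen. Alternatives were the deposited values, an offset of 50, no background correction, scaling to equal medians, detection p under 0.01, no filter, the mean of a gene's probes, a replicate block, array weights, an adjusted p under 0.01 and omission of each pool. The pools are separate pools of mice, and the labels do not say whether equal numbers pair them, so they were not paired. Sample groups were taken from the labels.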

Additional observations from a re-analysis of the deposited data

How the results depend on the processing

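The calls of *Il1r2*, *Il17rb* and *Il18* held under all 17 alternatives, while those of *Il31ra*, *Cxcr4*, *Il10rb*, *Cxcr1* and *Il4* each ended without at least 1 pool, as given above. The size of a log2 fold change depended on the background for genes near it, and the number of arrays and the signal over background limit what can be called. The cause of each change below was not tested. Array weights, which are estimated from the same values, gave 8 members higher and 14 lower, a median of -0.18, and 3189 probes higher and 4120 lower, against 1081 and 864. The samples with equal numbers had deviations that correlated by 0.72, 0.61 and -0.15, and PU.1-deficient pool 3 correlated best with wild-type pool 1 (0.18). PU.1-deficient pool 1 correlated by -0.65 and -0.54 with wild-type pools 2 and 3. With 3 pools per genotype, the deviations of pool 3 follow from those of pools 1 and 2, so its correlations are not independent. These values cannot decide whether equal numbers mark pairs, and no pairing was assumed because the labels do not give it. Members that passed with weights only included *Cxcr2* (adjusted p = 0.0163) and *Il15ra* (0.0105), and those that passed with weights and with the block included *Il18r1* (0.0118 and 0.0243), *Il17re* (0.0129 and 0.0220) and *Il4ra* (0.0160 and 0.0287). With the pool numbers as a replicate block, 8 members were higher and 8 lower, and 1596 probes were higher and 1681 lower. Scaling to equal medians gave 526 probes higher and 893 lower. An adjusted p under 0.01 left 3 members higher and 2 lower, and 590 and 311 probes. With PU.1-deficient pool 2 and wild-type pool 1 both omitted, chosen after seeing the data, 6 members were higher and 9 lower, with a median of -0.22, and 2865 probes were higher and 2953 lower. Deviations of these pools correlated by -0.68, so this omission does not balance the variation that pools of both genotypes shared. Without 1 pool in turn, 2 to 5 members were higher and 1 to 5 lower, the median was -0.15 to 0.079, and 606 to 1014 probes were higher and 298 to 1096 lower.

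Directions turned only for members that had not passed. With scaling to equal medians these were *Cxcl12* (-0.011), *Ccr7* (-0.023), *Il18rap* (-0.13), *Il10ra* (-0.063), *Il20ra* (-0.035) and *Il22ra1* (-0.044). With array weights they were *Ccr7* (-0.18), *Il18rap* (-0.25), *Il17ra* (0.57), *Il17rd* (0.083), *Il10ra* (-0.013), *Il20ra* (-0.050), *Il22ra1* (-0.092) and *Il5ra* (0.11), and with no background correction *Il5ra* (0.0011). Without both pools named above they were *Ccr7* (-0.27), *Il18rap* (-0.53), *Il17ra* (0.52), *Il10ra* (-0.22), *Il22ra1* (-0.12) and *Il5ra* (0.078). Without 1 pool in turn, log2 fold changes spanned -0.38 to 0.079 for *Ccl9*, -0.10 to 0.064 for *Ccl3*, -0.035 to 0.27 for *Cxcl12*, -0.12 to 0.23 for *Ccr7*, -0.48 to 0.048 for *Il13*, -0.36 to 0.22 for *Il12a*, -0.25 to 0.40 for *Il18rap*, -0.48 to 0.16 for *Il18bp*, -0.44 to 0.37 for *Il17ra*, -0.34 to 0.079 for *Il17rd*, -0.015 to 0.21 for *Il20ra*, -0.14 to 0.24 for *Il22ra1* and -0.14 to 0.14 for *Il5ra*. The values past 0 came without wild-type pool 3 for *Ccl9*, *Il13*, *Il12a* and *Cxcl12*, without wild-type pool 2 or PU.1-deficient pool 3 for *Ccl3*, without wild-type pool 1 or PU.1-deficient pool 2 for *Ccr7* and *Il18rap*, without wild-type pool 3 or PU.1-deficient pool 1 or 3 for *Il18bp*, without wild-type pool 2 for *Il20ra* and *Il22ra1*, without PU.1-deficient pool 2 for *Il22ra1*, and for *Il5ra* without any 1 of 4 pools.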

Other observations

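The remaining cell type markers, whose part in the values above was not tested, differed by cell type. Of 6 tested erythroid markers, *Epor*, *Klf1*, *Hba-a1* and *Car1* fell and none rose, with a summed linear level of 1323 to 2411 in PU.1-deficient and 3225 to 9882 in wild-type pools. Of 5 tested B cell markers, *Vpreb1* and *Igll1*, whose products form the surrogate light chain, rose and *Cd79b* fell, with overlapping summed levels of 434 to 734 and 584 to 757. The call of *Vpreb1* ended on omission of PU.1-deficient pool 1 or of any wild-type pool (adjusted p from 0.055 to 0.105), and when dim probes were kept (0.0722). Of 4 tested markers of T cells and natural killer cells, *Nkg7* rose, and the summed level was 11827 to 14130 in PU.1-deficient and 4681 to 5645 in wild-type pools, which rested mostly on *Nkg7* (mean log2 intensities 13.48 and 11.74), since *Prf1* and *Klrb1c* were dimmer and did not pass (log2FC -0.43 and -0.17) and *Cd4* was detected in 1 wild-type pool only. The genes *Cd3e*, *Cd3d* and *Cd3g*, which define T cells, had no tested probe. None of 5 tested dendritic cell markers passed in *limma*, although 2, both lower, had an unadjusted p under 0.05. The share of all genes under that unadjusted threshold was not counted.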
